A study of Ambystoma mexicanum with 12 samples.

Results

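The genes described here encode the molecular chaperones and folding enzymes named on an axolotl expression array. They were chosen by a rule on gene symbols that used no measured value, though earlier results of these data were known when it was drawn up. They numbered 75 of the 8639 genes that the array's annotation names. The symbols cover the heat shock protein families, their J-domain partners (the DNAJA, DNAJB and DNAJC genes), subunits of the CCT/TCP1 ring and of prefoldin, the protein disulphide isomerases with P4HB, the lectin chaperones CALR and CANX, the nucleotide exchange factor HYOU1, and CRELD1 and CRELD2. HSPBP1 and HSPBAP1, which bind heat shock proteins, came in through their symbols, whereas the ring subunit CCT6A did not match and was not counted. A gene with several probe sets, as 14 of the 75 had, was represented by the probe set with the highest mean over the arrays.

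Chaperones bind proteins that are not yet folded, hold them in solution and release them to fold or to be degraded. Proteins destined for secretion, such as collagens, keratinocyte surface proteins and antibodies, fold in the endoplasmic reticulum (ER) with help from the HSP70 protein HSPA5 (BiP), the HSP90 protein HSP90B1 (GRP94), lectin chaperones that read sugar chains, and disulphide isomerases. In mammals many genes for these ER proteins are switched on together when unfolded protein builds up, through the unfolded protein response. The cytosol has its own HSP70, HSP90 and small heat shock proteins, and the CCT ring with prefoldin folds actin and tubulin, while mitochondria use HSP60.

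The study took full-thickness punch biopsies of skin from adult white axolotls, salamanders whose skin heals without a scar, and hybridised the RNA to 12 single-colour arrays. The 4 groups had n = 3 arrays each: uninjured skin, and wounds taken 2, 14 or 21 days after the punch (days post injury, dpi), and no group carried a drug or a transgene. The methods name 3 separate adult males and do not say whether each gave all 4 groups. A treatment text in the labels describes a different experiment, on spinal cord with ivermectin and pooled animals, and a description label gives a shorter time for the arrays called 14 days in the titles and the methods, so it is unclear if 1 animal or several stand behind each array, and every SD and p-value here measures a spread between arrays. The values were log2 intensities from a robust multi-array average, which set a gene against itself between arrays and not against other genes.

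Array medians lay between 5.52 and 5.61 and lower quartiles between 4.04 and 4.11 on the log2 scale. Of the 75 genes, 46 had a mean above the upper quartile of the arrays and 8 a mean below the lower quartile, where a change cannot be told from background (DNAJB13, DNAJC6, DNAJC28, HSPA12A, HSPA12B, HSPH1, PDIA2 and PDIA5). Markers of the skin itself were present, with a mean log2 intensity of 9.67 to 10.77 for 17 epidermal markers (of 27 listed) and 6.54 to 10.05 for 20 dermal fibroblast markers (of 21 listed). A punch of whole skin also takes what lies beneath: the mean of 23 skeletal muscle markers (of 33 listed), centred on each gene's mean, was 1.82, 1.83 and -0.56 in uninjured replicates 1 to 3, -0.30, -2.28 and -2.88 at 2 dpi, -0.86, 1.14 and -1.23 at 14 dpi, and 1.82, 0.37 and 1.14 at 21 dpi. Uninjured replicate 3, 2 dpi replicate 1 and 14 dpi replicate 2 thus stood apart from the other arrays of their groups. Counts of members, and some single genes, are also given without 1 or more of these arrays. In whole tissue, fewer cells of a type and less RNA per cell cannot be told apart.

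The 75 genes were scarcely different in number of changes from other genes early on, and the largest block of changes came late, at 21 dpi, where it lay in the ER. By limma's moderated F-test over the 3 wound times, 25 of the 75 genes (33.3%) changed at an adjusted p under 0.05, against 24.9% of all genes with a symbol. At 2 dpi 4 genes were higher and 2 lower than in uninjured skin (5.33% and 2.67%), where the shares over all genes were 6.22% and 4.54%. At 14 dpi 2 were higher and 4 lower (2.67% and 5.33%, against 5.29% and 2.75%). At 21 dpi 2 were higher and 15 lower, that is 20.0% lower against a background of 7.26% lower and 7.67% higher. Single arrays bore on these counts, given here with the shares of all genes higher and lower in brackets. The 17 at 21 dpi fell to 9 without uninjured replicate 2 (4.09% and 4.06%) or without 21 dpi replicate 3 (3.81% and 2.86%). The 6 at 14 dpi dropped to 1 without uninjured replicate 2 (2.74% and 1.34%) or without 14 dpi replicate 3 (3.18% and 1.26%). They grew to 10 without uninjured replicate 3 (6.78% and 4.36%). The median log2 change of the 75 genes was 0.06, -0.04 and -0.13 at 2, 14 and 21 dpi, and that of all genes was 0.02, 0.01 and -0.01.

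Grouping the genes by the compartment in which the protein is known to work, a division made after the values were seen, placed 10 of the 15 falls at 21 dpi among 21 proteins of the ER. Of these 21 genes 47.6% were thus lower, against 7.26% of all genes. Their median log2 change was 0.05 at 2 dpi, -0.10 at 14 dpi and -0.66 at 21 dpi. Among 33 cytosolic genes 2 rose and 1 fell at 21 dpi (6.06% and 3.03%, against 7.67% and 7.26% of all genes). The cytosolic median was 0.03. Among 7 mitochondrial genes 2 fell (28.6%), with a median of -0.33, and 7 genes are too few to read beside that share. The remaining falls were in DNAJB12, which sits in the ER membrane facing the cytosol, and in DNAJC9. Since the compartments were drawn up with the values known, their counts are a description.

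**Figure D1:**
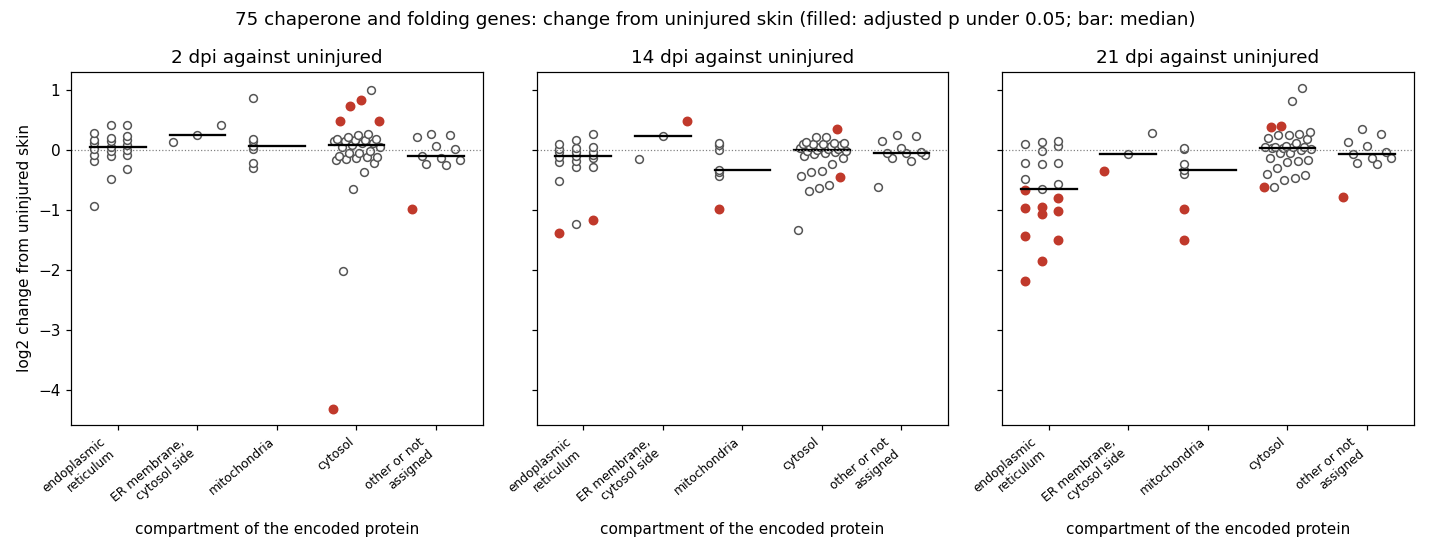
Log2 change of the 75 genes from uninjured skin (vertical axis) at 2, 14 and 21 dpi (panels), by compartment of the protein (horizontal axis), with a point per gene, filled where the adjusted p from limma was under 0.05 and with a bar at the median of each compartment. At 21 dpi 10 of the 21 ER genes are filled and all 10 lie below 0, with a median of -0.66, whereas the 33 cytosolic genes have a median of 0.03.

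HSPA5 (BiP), the HSP70 of the ER which binds unfolded protein there, fell furthest of the ER genes. Its log2 intensity was 11.38, 10.50 and 9.99 in uninjured replicates 1 to 3, 10.58, 10.30 and 10.04 at 2 dpi, 9.45, 9.15 and 9.09 at 14 dpi, and 8.36, 8.71 and 8.24 at 21 dpi. Uninjured and 2 dpi arrays overlapped, every 14 dpi array was below both of these groups, and every 21 dpi array was below the 14 dpi arrays. Against uninjured skin the change was -0.32 at 2 dpi (adjusted p = 0.581, limma), -1.40 at 14 dpi (standard error 0.30, 2.63-fold lower, adjusted p = 0.0202) and -2.19 at 21 dpi (standard error 0.30, 4.57-fold lower, adjusted p = 0.00205). The spread in uninjured skin was wide (SD 0.70), with replicate 1 the highest. When only the 2 groups compared were fitted, none of the 75 genes passed at 14 dpi (1.46% of all genes were then higher and 0.313% lower), with an adjusted p of 0.113 for HSPA5, and the 21 dpi fall passed it in every alternative run.

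DNAJB9 (ERdj4), a J-domain partner that loads HSPA5 onto its clients, followed the same course. It measured 10.12, 9.66 and 9.27 in uninjured skin, 9.44, 9.65 and 9.68 at 2 dpi, 8.56, 8.36 and 8.59 at 14 dpi, and 8.44, 8.14 and 8.13 at 21 dpi. All 6 later arrays lay below all 6 earlier ones. The gene fell by 1.18 at 14 dpi (2.26-fold, adjusted p = 0.00578, limma) and by 1.44 at 21 dpi (2.72-fold, adjusted p = 0.00168). The 14 dpi fall missed the threshold with only the groups compared in the fit (adjusted p = 0.065). Of the ER genes only HSPA5 and DNAJB9 had passed the threshold by 14 dpi.

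Other ER genes passed the threshold at 21 dpi and not at 14 dpi, some with 14 dpi values already below uninjured skin. CRELD2, an ER protein with disulphide isomerase activity that is induced by ER stress in mammals, measured 9.59, 9.32 and 9.32 in uninjured skin, 9.30, 9.61 and 9.58 at 2 dpi, 9.19, 8.46 and 8.996 at 14 dpi, and 7.77, 7.97 and 7.996 at 21 dpi. Its change at 21 dpi was -1.50 (standard error 0.18, 2.83-fold lower, adjusted p = 0.00104, limma), and at 14 dpi -0.53 (adjusted p = 0.105). DNAJB11 (ERdj3), another partner of HSPA5, measured 10.64, 10.85 and 10.65 in uninjured skin and 10.93, 11.04 and 11.43 at 2 dpi, where every array was above the uninjured ones without passing the threshold (0.42, adjusted p = 0.137). It then measured 10.82, 10.31 and 10.59 at 14 dpi and 9.66, 9.74 and 9.51 at 21 dpi, a fall of 1.08 from uninjured skin (2.11-fold, adjusted p = 0.00287). For both genes the 21 dpi arrays lay below all 9 others.

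The disulphide isomerase PDIA6 measured 11.35, 11.35 and 11.39 in uninjured skin, 11.20, 11.22 and 11.59 at 2 dpi, 11.25, 11.002 and 11.30 at 14 dpi, and 10.64, 10.29 and 10.32 at 21 dpi. The change at 21 dpi was -0.95 (standard error 0.13, 1.93-fold lower, adjusted p = 0.00246, limma). Calreticulin (CALR), the soluble lectin chaperone and calcium store of the ER, measured 13.03, 13.20 and 13.26 in uninjured skin, 13.20, 13.26 and 13.19 at 2 dpi, 13.13, 12.55 and 13.19 at 14 dpi, and 12.10, 12.22 and 12.11 at 21 dpi. It fell by 1.02 at 21 dpi (standard error 0.15, 2.03-fold, adjusted p = 0.0028), and in both genes the lowest 14 dpi array was replicate 2. A dim second probe set for CALR, with a mean of 3.54, gave 0.11 at 21 dpi.

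HYOU1 (GRP170), the exchange factor that resets HSPA5, was lower at each wound time and more variable. Its values were 9.40, 9.24 and 8.43 in uninjured skin, 7.62, 8.54 and 8.10 at 2 dpi, 8.46, 6.86 and 8.01 at 14 dpi, and 6.78, 7.52 and 7.21 at 21 dpi. Only the 21 dpi arrays were all below the uninjured arrays, and only that change passed the threshold (-1.85, standard error 0.41, 3.61-fold lower, adjusted p = 0.0163, limma), beside -0.93 at 2 dpi (adjusted p = 0.198) and -1.24 at 14 dpi (adjusted p = 0.103). A second probe set for HYOU1 fell by 0.83 at 21 dpi (adjusted p = 0.00786) but was 0.42 above uninjured skin at 2 dpi (adjusted p = 0.128), so that the 2 probe sets differ in sign early and share it late.

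The other 3 ER genes that fell at 21 dpi were HSP90B1 (GRP94), which folds integrins and other surface receptors, the isomerase PDIA4 and DNAJC10 (ERdj5), a J-domain protein that reduces disulphide bonds. HSP90B1 measured 11.23, 11.41 and 11.07 in uninjured skin and 10.52, 10.22 and 10.54 at 21 dpi, a change of -0.81 (adjusted p = 0.0229, limma). For PDIA4 the values were 10.68, 10.81 and 11.40 against 10.36, 10.29 and 10.23 (-0.67, adjusted p = 0.042), and for DNAJC10 they were 7.44, 7.99 and 7.70 against 6.65, 6.87 and 6.71 (-0.97, adjusted p = 0.0381). The arrays of the groups did not overlap in any of these 3 genes.

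**Figure D2:**
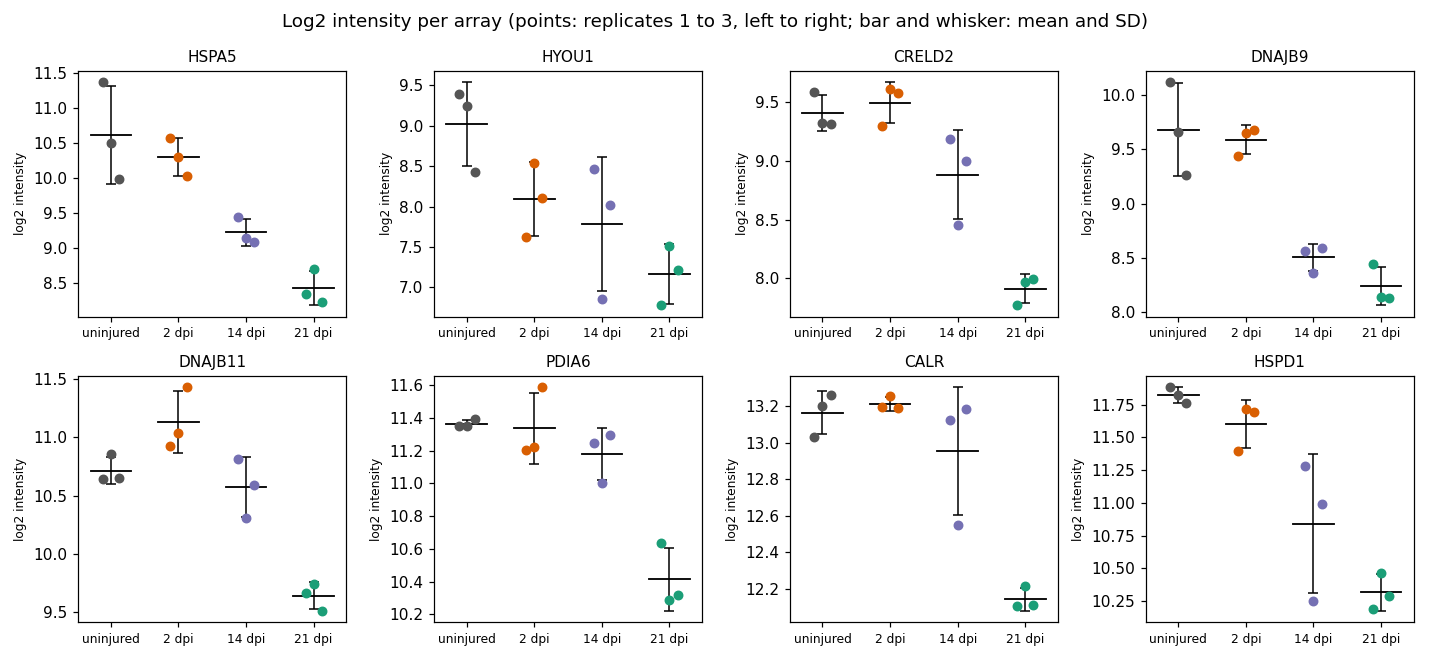
Log2 intensity (vertical axis) in each of the 12 arrays by group (horizontal axis) for 7 ER genes and the mitochondrial chaperone HSPD1, with a point per array, a bar at the group mean and whiskers for the SD (n = 3). Against uninjured skin HSPA5, DNAJB9 and HSPD1 passed the threshold at 14 and 21 dpi, and the other genes at 21 dpi only. No gene passed from 14 to 21 dpi. In PDIA6 every 14 dpi array already lies below the uninjured arrays.

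The fall was not seen in the whole ER set, part of which was too dim to show one. Of the 21 genes 11 did not pass the threshold at 21 dpi, among them P4HB, the classical disulphide isomerase and a subunit of the prolyl hydroxylase that modifies collagen. P4HB measured 12.43, 12.59 and 12.23 in uninjured skin and 12.15, 12.25 and 12.18 at 21 dpi, a change of -0.22 with a 95% interval from -0.46 to 0.01 (adjusted p = 0.219, limma). Calnexin (CANX), the membrane-bound counterpart of CALR, measured 5.54, 5.61 and 5.53 against 5.74, 5.66 and 5.73, a change of 0.15 with an interval from -0.38 to 0.69. The CANX probe set was dim, with a mean of 5.76 near the array medians, so a fall could be missed there. PDIA3 (ERp57), which works with both lectins, gave -0.48 (interval -1.07 to 0.10), with uninjured replicate 1 far above the other 2 uninjured arrays at 11.55 against 10.26 and 10.64.

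Among the rest of these 11, DNAJC3 (p58IPK), a partner of HSPA5, gave -0.66 (interval -1.20 to -0.12, adjusted p = 0.112, limma) and CRELD1 gave -0.57 (interval -1.07 to -0.07, adjusted p = 0.136). DNAJC3 is a case where the choice of probe set decides the call: a second probe set measured 8.27, 8.33 and 8.99 in uninjured skin and 7.40, 6.58 and 6.73 at 21 dpi, a fall of 1.62 (adjusted p = 0.0128). DNAJC25, HSPA13, DNAJC1, DNAJC16, PDIA2 and PDIA5 lay between -0.24 and 0.13. HSPA13 measured 4.95, 4.83 and 4.91 in uninjured skin and 4.71, 4.60 and 4.70 at 21 dpi, without overlap. It passed the F-test over the 3 wound times (adjusted p = 0.035, limma). PDIA2 and PDIA5 had means of 2.98 and 3.44, below the lower quartile, where a change cannot be told from background. DNAJC16, at 4.28, was little above it.

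**Figure D3:**
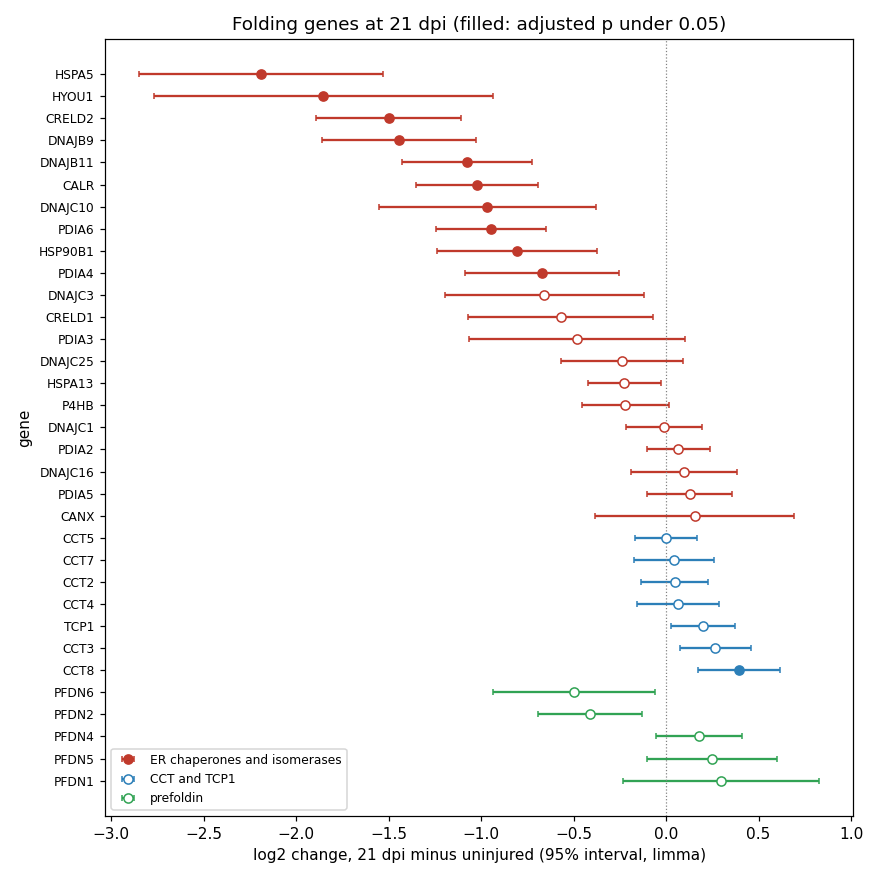
Log2 change from uninjured skin at 21 dpi (horizontal axis) with its 95% interval from limma for 21 ER genes, 7 CCT/TCP1 subunits and 5 prefoldin subunits (vertical axis), filled where the adjusted p was under 0.05. The ER genes run from -2.19 (HSPA5) to 0.15 (CANX), while the CCT/TCP1 genes lie between -0.00 and 0.39.

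Averaged over the 21 ER genes and centred on each gene's mean, the level was 0.29, 0.22 and 0.19 in uninjured replicates 1 to 3, 0.19, 0.27 and 0.24 at 2 dpi, 0.11, -0.20 and 0.04 at 14 dpi, and -0.46, -0.41 and -0.49 at 21 dpi. The 3 latest arrays were the lowest of the 12, and 14 dpi replicate 2 was the next. Cell type markers moved over the same groups. Dermal fibroblast markers were highest at 21 dpi (1.10 to 1.33, against -0.10 to 0.33 in uninjured skin), and 9 of 20 rose. Markers of dividing cells were at -0.51 to -0.44 there, against 0.50 to 0.76 in uninjured skin, and 13 of 20 fell, while the lowest single array was 14 dpi replicate 2 at -0.60. Epidermal markers ran from -0.63 to -0.04 at 21 dpi and from -0.11 to 0.06 in uninjured skin, with 2 of 17 lower. Myeloid markers ran from -0.22 to 0.06 at 21 dpi and from -0.63 to -0.50 in uninjured skin, and 5 of 14 rose. Of plasma cells, which are rich in ER, 4 of 9 listed markers were measured, at -0.16 to -0.03 against -0.16 to 0.26, and none passed at 21 dpi by limma, nor at an unadjusted p under 0.05. Of 2 measured red blood cell markers (of 12 listed) 1 rose. The part of these markers in the ER result was not tested. With the mean of the muscle markers added to the fit, 10 ER genes were lower at 21 dpi (8.39% of all genes were then lower). The same number was lower with uninjured replicate 3 and 14 dpi replicate 2 left out (9.04% of all genes). It was 9 without 2 dpi replicate 1 (6.88%). The count fell to 6 without uninjured replicate 2 (4.06%), 21 dpi replicate 1 (3.99%) or 21 dpi replicate 3 (2.86%). Calls were thus lost over the whole array in these fits. HSPA5, DNAJB9, CRELD2, DNAJB11, PDIA6 and CALR passed the threshold in each of them.

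Genes that serve folding in the ER but lie outside the 75 did not move as a block. From a list of ER folding, quality control and stress genes, 44 of 56 were measured, and at 21 dpi 6 were higher and 4 lower (13.6% and 9.09%, against 7.67% and 7.26% of all genes), with a median of -0.05. Those that rose were ER prolyl isomerases and a collagen chaperone: FKBP10, an isomerase that acts on collagen, by 1.68 (adjusted p = 0.000224, limma), FKBP7 by 2.35, FKBP9 by 1.21, the cyclophilin PPIC by 1.53 and the collagen chaperone SERPINH1 (HSP47) by 2.11, together with SDF2 by 0.49. SERPINH1 averaged 8.55 in uninjured skin and 10.66 at 21 dpi. Those that fell included ER-stress-inducible genes, SDF2L1 by 1.49 (adjusted p = 0.00604) and MANF by 0.97 (adjusted p = 0.00662), the secretory cell isomerase FKBP11 by 1.19, and DERL2, which helps to export misfolded protein, by 0.44. So at 21 dpi the genes of the ER lumen moved in both directions, HSPA5, DNAJB9 and DNAJB11 down and FKBP10 and SERPINH1 up, in the same arrays.

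Among genes of the unfolded protein response itself, the ER membrane sensors ERN1 (IRE1), EIF2AK3 (PERK) and ATF6 gave -0.26, -0.39 and -0.09 at 21 dpi and did not pass the threshold at any wound time against uninjured skin. XBP1, a transcription factor activated by splicing of its RNA, fell by 0.70 at 2 dpi (adjusted p = 0.0254, limma) and gave -0.31 and -0.12 at 14 and 21 dpi, but the probe set does not separate the spliced form. The transcription factors ATF4 and DDIT3 (CHOP) gave -0.24 and 0.16 at 21 dpi and the degradation factor HERPUD1 gave -0.45, and none of these 3 passed at a wound time either. All of these but XBP1 were picked for mention after their values were seen.

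In mitochondria HSPD1 (HSP60), the matrix chaperonin, fell at 14 and at 21 dpi. It measured 11.88, 11.83 and 11.77 in uninjured skin, 11.39, 11.72 and 11.70 at 2 dpi, 11.28, 10.25 and 10.99 at 14 dpi, and 10.19, 10.47 and 10.29 at 21 dpi. All wound arrays were below the uninjured ones, by -0.22 at 2 dpi (adjusted p = 0.601, limma), -0.98 at 14 dpi (standard error 0.22, 1.98-fold, adjusted p = 0.0238) and -1.51 at 21 dpi (standard error 0.22, 2.84-fold, adjusted p = 0.00271). With only the groups compared in the fit the 14 dpi value of HSPD1 did not pass (adjusted p = 0.129). DNAJC11, a J-domain protein of the mitochondrial membranes, measured 6.82, 7.03 and 6.82 in uninjured skin and 5.73, 6.15 and 5.80 at 21 dpi, a fall of 1.00 (adjusted p = 0.009). The other 5 mitochondrial members did not pass, with DNAJA3, a partner of mitochondrial HSP70, nearest to the threshold at -0.41 (adjusted p = 0.0507).

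The wider mitochondrial folding list held 14 measured genes, of which 4 fell and 1 rose at 21 dpi (28.6% and 7.14%, against 7.26% and 7.67% of all genes). GRPEL1, the exchange factor of mitochondrial HSP70, fell by 1.22 (adjusted p = 0.0208, limma), the mitochondrial HSP90 protein TRAP1 by 0.72 and the matrix protease LONP1 by 0.75, with SPG7, an inner membrane protease, lower by 0.39. HSCB, a J-domain protein of iron-sulphur cluster assembly, rose by 1.12. The median of the 14 was -0.25.

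The early rises at 2 dpi were in 4 cytosolic genes, a share of the 75 no larger than among all genes. DNAJB2, which passes ubiquitinated clients to the proteasome, measured 8.50, 8.39 and 8.42 in uninjured skin, 9.04, 8.87 and 8.84 at 2 dpi, 8.44, 8.41 and 8.29 at 14 dpi, and 8.53, 8.57 and 8.54 at 21 dpi. Against uninjured skin it passed the threshold at 2 dpi alone (0.48, standard error 0.08, 1.40-fold, adjusted p = 0.00573, limma), and it fell again by 0.54 from 2 to 14 dpi (adjusted p = 0.0038). DNAJB6, which keeps aggregation-prone proteins apart, measured 9.03, 9.02 and 9.17 in uninjured skin and 9.81, 9.74 and 9.86 at 2 dpi (0.73, adjusted p = 0.0378). The 2 groups did not overlap in either gene.

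DNAJC5, the cysteine string protein of secretory vesicles, measured 5.80, 5.93 and 6.07 in uninjured skin and 6.69, 6.69 and 6.91 at 2 dpi (0.83, adjusted p = 0.03, limma). HSPA4, an exchange factor of the HSP110 family, measured 6.49, 6.45 and 6.29 against 6.84, 7.04 and 6.78 (0.48, adjusted p = 0.0278). Again the arrays did not overlap. At 21 dpi neither gene was above uninjured skin any longer, with 5.51 to 5.92 for DNAJC5 and 6.04 to 6.38 for HSPA4. With the mean of the muscle markers added to the fit DNAJB2 alone of the 75 genes passed at 2 dpi. Over all genes 1.04% were then higher and 0.787% lower, so the loss of calls was not particular to the 75. Other markers moved at 2 dpi as well: 7 of 14 myeloid markers rose, 10 of 20 dermal fibroblast markers fell and 1 rose, 3 of 17 epidermal markers rose and 5 of 20 markers of dividing cells fell, and their part in the 2 dpi changes was not tested. Without 2 dpi replicate 1 the count of members was 5 (5.34% of all genes were then higher and 3.6% lower). DNAJB6, DNAJC5 and HSPA4 missed the threshold in that fit (adjusted p = 0.0852, 0.0586 and 0.055, limma). The count of 6 at 2 dpi also moved, given here with the shares of all genes higher and lower in brackets. It became 2 without uninjured replicate 2 (3.01% and 2.48%) or 2 dpi replicate 2 (3.11% and 2.73%). It was 10 without uninjured replicate 3 (8.5% and 6.32%), and 14 without uninjured replicate 3 and 14 dpi replicate 2 (10.5% and 7.45%).

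HSP90AA1, the inducible cytosolic HSP90, stood out by its course between wound times. It measured 8.03, 6.78 and 5.98 in uninjured skin, so the uninjured arrays alone spanned over 2 log2 units (SD 1.03), and 7.96, 7.73 and 8.10 at 2 dpi, 5.35, 5.97 and 5.44 at 14 dpi, and 6.24, 6.53 and 6.17 at 21 dpi. Neither 1.00 at 2 dpi (adjusted p = 0.161, limma) nor -1.34 at 14 dpi (adjusted p = 0.0751) passed against uninjured skin. The F-test over the 3 wound times did pass (adjusted p = 0.0107, limma). Between wounds the fall from 2 to 14 dpi was -2.34 (standard error 0.40, 5.07-fold, adjusted p = 0.00714) and that from 2 to 21 dpi was -1.61 (adjusted p = 0.0174), with no overlap of the arrays. DNAJB1, the heat-inducible HSP40, measured 7.07, 6.25 and 6.13 in uninjured skin (SD 0.51), again with replicate 1 the highest, and passed in no comparison.

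The brightest probe sets of the constitutive partners did not pass the threshold against uninjured skin. HSP90AB1 gave -0.06, -0.13 and -0.06 at 2, 14 and 21 dpi, and HSPA8 (HSC70), the everyday cytosolic HSP70, gave 0.08, 0.10 and 0.03, with an interval from -0.16 to 0.22 at 21 dpi. The probe sets of HSP90AB1 disagreed: another one measured 12.96, 12.63 and 12.66 in uninjured skin and 12.005, 12.32 and 12.02 at 2 dpi, a fall of 0.63 (adjusted p = 0.0285, limma). It gave -0.41 at 14 dpi and -0.35 at 21 dpi, which did not pass although no wound array reached the uninjured ones. A further probe set measured 12.81, 12.35 and 12.51 in uninjured skin and 12.53, 12.74 and 12.26 at 2 dpi, so the groups overlapped. Both of these can match more than 1 transcript by their design and are uncertain. The 12 arrays of HSPA8 lay between 13.55 and 13.79. The dimmer probe sets carrying the HSPA8 symbol did not follow it. One of them measured 7.06, 7.25 and 6.68 in uninjured skin and 5.86, 5.08 and 5.67 at 14 dpi, a fall of 1.46 (adjusted p = 0.00403, limma), another fell by 0.77 (adjusted p = 0.0135), and the last gave -1.47 (adjusted p = 0.0664). Whether these read HSPA8 or a related HSP70 gene was not tested, and the HSPA8 values are uncertain for that reason.

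DNAJA1 and DNAJA2, the main J-domain partners of HSPA8, moved slightly upward. DNAJA1 measured 12.05, 11.91 and 11.94 in uninjured skin and 12.40, 12.30 and 12.33 at 21 dpi, a rise of 0.38 (1.30-fold, adjusted p = 0.014, limma), and a second, dimmer probe set rose by 1.06 at 14 dpi (adjusted p = 0.0105) and 1.16 at 21 dpi (adjusted p = 0.00489). DNAJA2 rose by 0.35 at 14 dpi (adjusted p = 0.0454). Of the pair of ER membrane J-domain proteins that recruit HSPA8 to the ER surface, DNAJB14 rose by 0.48 at 14 dpi (adjusted p = 0.0295) and DNAJB12 fell by 0.35 at 21 dpi (adjusted p = 0.0407). In the fit of only the groups compared the 14 dpi values of DNAJA2 and DNAJB14 did not pass (adjusted p = 0.171 and 0.0797).

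DNAJC2, a J-domain protein bound to the ribosome, fell steadily in the group means. It measured 8.89, 8.72 and 8.59 in uninjured skin, 8.37, 8.52 and 8.66 at 2 dpi, 8.36, 8.26 and 8.25 at 14 dpi, and 8.18, 8.11 and 8.05 at 21 dpi. The change was -0.45 at 14 dpi (adjusted p = 0.0283, limma) and -0.62 at 21 dpi (adjusted p = 0.00476), with no overlap with uninjured skin at either time, and the 14 dpi value did not pass with only the groups compared in the fit (adjusted p = 0.119). Of the 26 measured co-chaperones and regulators of the cytosol outside the 75, none rose by limma at any of the 3 times. At an unadjusted p under 0.05, 1 was higher at 2 dpi (3.85%, against 15.1% of all genes). By limma 2 fell at 14 dpi (7.69%, against 2.75% of all genes) and 3 at 21 dpi (11.5%, against 7.26%). They were the HSP70 partner ST13 (-1.04 at 21 dpi, adjusted p = 0.00358), STIP1, which bridges HSP70 and HSP90 (-0.42), and the HSP90 partner for kinases CDC37 (-0.48).

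DNAJC9, which carries histones H3 and H4, was lower at every wound time by its brightest probe set. It measured 9.01, 8.84 and 8.45 in uninjured skin, 7.64, 7.99 and 7.70 at 2 dpi, 8.35, 8.22 and 7.87 at 14 dpi, and 8.12, 7.83 and 7.97 at 21 dpi. The fall was 0.99 at 2 dpi (standard error 0.17, 1.98-fold, adjusted p = 0.00676, limma) and 0.79 at 21 dpi (adjusted p = 0.0146), and the 14 dpi value of -0.62 just missed the threshold (adjusted p = 0.0568). No wound array reached the lowest uninjured one in this probe set. A second, dimmer probe set measured 5.27, 4.80 and 4.74 in uninjured skin and 4.17, 5.01 and 4.51 at 2 dpi. It then measured 5.23, 4.38 and 4.78 at 14 dpi and 4.37, 4.95 and 4.63 at 21 dpi, overlapping uninjured skin at each time. Markers of dividing cells were lower in the same groups, at -0.25 to 0.29 at 2 dpi and -0.60 to 0.22 at 14 dpi against 0.50 to 0.76 in uninjured skin, and their part in the DNAJC9 values was not tested.

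The CCT/TCP1 ring moved little, with 6 of 7 subunits above 0 at 21 dpi. Its 7 measured subunits had median changes of 0.11, 0.09 and 0.06 at 2, 14 and 21 dpi, and their 95% intervals over the 3 times ran from -0.22 to 0.62. For CCT5 the 12 arrays lay between 12.56 and 12.73. CCT8 alone passed: it measured 11.32, 11.39 and 11.63 in uninjured skin and 11.77, 11.94 and 11.82 at 21 dpi, a rise of 0.39 (1.31-fold, adjusted p = 0.0286, limma). At an unadjusted p under 0.05 by limma, 3 of 7 were higher at 21 dpi and 0 lower (14.4% and 15.2% of all genes). With 7 subunits this count says little. Averaged over the 7 subunits the centred level stayed between -0.13 and 0.08 in all 12 arrays, where the 21 ER genes ran from -0.49 to 0.29. The subunit level was -0.13, -0.13 and 0.005 in uninjured skin and 0.06, 0.08 and 0.04 at 21 dpi. The probe sets of CCT5 and the brightest one of PFDN6 can match more than 1 transcript by their design, so their values are uncertain.

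Prefoldin, which hands unfolded actin and tubulin to the ring, had no subunit past the threshold against uninjured skin by limma at its brightest probe set. At an unadjusted p under 0.05, 1 of 5 was higher at 2 dpi, 1 lower at 14 dpi and 2 lower at 21 dpi. Of all genes 15.1%, 10.5% and 15.2% were so called, and with 5 subunits these counts say little. At 21 dpi PFDN6 gave -0.50 (adjusted p = 0.135) and PFDN2 gave -0.41 (adjusted p = 0.0593), beside 0.18 for PFDN4, 0.25 for PFDN5 and 0.30 for PFDN1. A second PFDN6 probe set, not marked by its design as matching more than 1 transcript, fell by 0.52 and passed (adjusted p = 0.038, limma). Among 9 measured tubulin folding and prefoldin-like genes, TXNDC9 rose by 0.43 and PDCL3, an assistant of the ring, fell by 0.58 at 21 dpi. That is 11.1% each way, against 7.67% and 7.26% of all genes, and with 9 genes these counts say little.

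The small heat shock proteins HSPB1 and HSPB8 had the widest range over the 12 arrays of all 75 genes, and the skeletal muscle markers moved with them. HSPB1 (HSP27), which caps unfolding proteins and stabilises actin filaments, measured 12.01, 12.28 and 8.54 in uninjured skin, 8.50, 5.97 and 5.40 at 2 dpi, 9.62, 11.60 and 9.56 at 14 dpi, and 12.20, 11.36 and 11.70 at 21 dpi. It fell by 4.32 at 2 dpi (standard error 1.05, 20.0-fold, adjusted p = 0.0287, limma), although uninjured replicate 3 and 2 dpi replicate 1 differed by under 0.1. HSPB8, which works with BAG3 in muscle, measured 7.15, 7.09 and 5.08 in uninjured skin, 5.38, 4.14 and 3.73 at 2 dpi, 5.75, 6.57 and 5.26 at 14 dpi, and 7.77, 7.37 and 7.29 at 21 dpi. Its 2 dpi change was -2.03 (adjusted p = 0.0568).

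In both genes the low uninjured array was replicate 3, and the high arrays of the 2 and 14 dpi groups were replicates 1 and 2, the same arrays that stood apart in the 23 muscle markers. Without 2 dpi replicate 1 the 2 dpi change was -5.26 for HSPB1 (adjusted p = 0.0152, limma) and -2.51 for HSPB8, which then passed (adjusted p = 0.0334). Of those markers 7 fell at 2 dpi against uninjured skin, and 9 rose from 2 to 21 dpi. With their mean added to the fit the HSPB1 change at 2 dpi no longer passed (adjusted p = 0.343, limma). Over all genes 1.04% were then higher and 0.787% lower, so calls were lost over the whole array. The HSPB1 change also missed the threshold without uninjured replicate 1 (adjusted p = 0.103) and in other fits that left out an array. Dermal fibroblast markers, too, were highest in replicate 1 at 2 dpi (-1.20, -1.93 and -2.18 in replicates 1 to 3). At 14 dpi they were highest in replicate 2 (0.35, 0.89 and 0.30). The part of either set of markers in the HSPB1 and HSPB8 values was not tested. HSPB7, a small heat shock protein of striated muscle, gave -0.65 at 2 dpi (adjusted p = 0.0869).

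**Figure D4:**
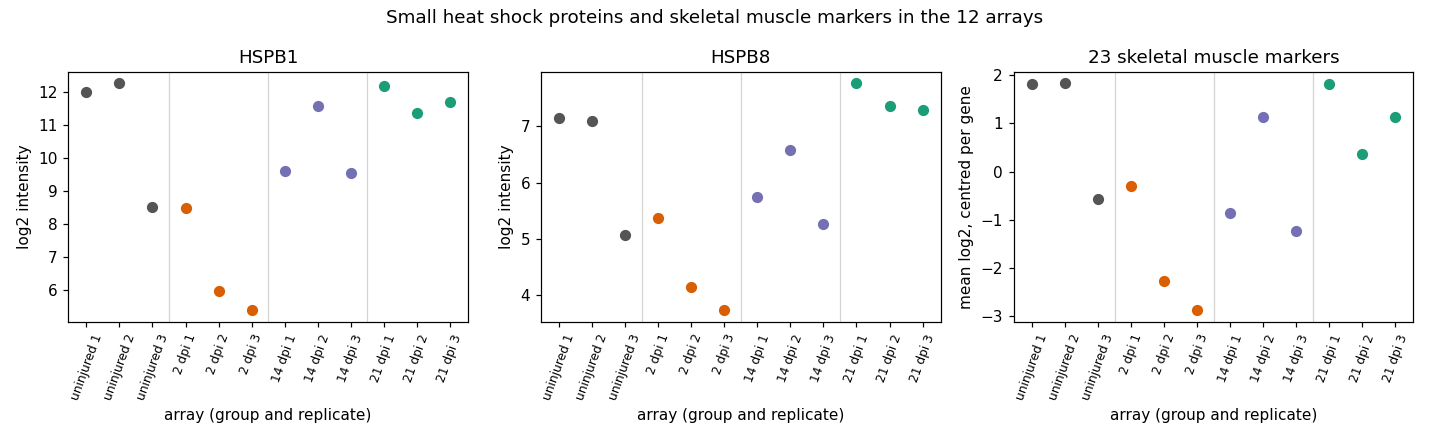
Log2 intensity of HSPB1 and HSPB8 and mean centred log2 intensity of 23 skeletal muscle markers (vertical axes) in each of the 12 arrays (horizontal axis, group and replicate), with a point per array. In all 3 panels uninjured replicate 3 lies below the other uninjured arrays and 2 dpi replicate 1 and 14 dpi replicate 2 above the other arrays of their groups.

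Between wound times falls outnumbered rises among the genes that passed, and most of the 75 did not pass. From 2 to 14 dpi none rose and 4 fell (5.33%, against 4.09% of all genes lower and 4.58% higher): DNAJB2, HSP90AA1, DNAJB9 and DNAJC5. From 2 to 21 dpi 3 rose and 24 fell (4.0% and 32.0%, against 10.9% and 14.4%). The 24 included 11 ER genes, with DNAJB11 at -1.49 (adjusted p = 0.000212, limma), CRELD2 at -1.59 (adjusted p = 0.000289), HSPA5 at -1.87 and CALR at -1.07, and the mitochondrial genes HSPD1 (-1.29), DNAJC11 (-1.01) and DNAJC15 (-1.20), an import factor of the inner membrane. The 3 that rose were HSPB1 by 5.13, HSPB8 by 3.06 and DNAJB5 by 0.42. These comparisons share the 2 dpi arrays with those above. With the mean of the muscle markers added to the fit 6 of the 27 still passed (CALR, CRELD2, DNAJB11, DNAJB9, HSP90AA1 and HSPA5). Over all genes 2.66% were then higher and 1.99% lower, so calls were lost over the whole array.

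From 14 to 21 dpi none of the 75 genes passed the threshold by limma, where 0.104% of all genes rose and 0.0579% fell. At an unadjusted p under 0.05, 1 was higher and 13 lower, against 4.94% and 7.11% of all genes, and 9 of the 13 were ER genes. The median of the 21 ER genes was -0.45 and that of all genes -0.03, and in 11 of the 21 every 21 dpi array was below every 14 dpi array (10.8% of all genes). DNAJB11 came nearest, at -0.94 (adjusted p = 0.0625), followed by PDIA6 at -0.77 (adjusted p = 0.0734), CALR at -0.81 and CRELD2 at -0.97 (adjusted p = 0.0797 for both). The count depended on the arrays and weights used: without 14 dpi replicate 2, 8 genes fell (1.5% of all genes then did), CALR, CRELD2, DNAJB11, DNAJB6, DNAJC10, DNAJC11, HSPD1 and PDIA6, of which 5 belong to the ER. With array weights 15 passed (5.74% of all genes were then higher and 9.32% lower). Without 2 dpi replicate 3, which enters through the shared spread, 2 passed (0.081% of all genes were then higher and 0.0695% lower).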

How the data were processed

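RNA from skin biopsies was measured on 12 arrays. The authors deposited 1 log2 value per probe set and array, background corrected, normalised and summarised by RMA. The labels name Affymetrix Expression Console and the methods name an R package for this step, but their versions were not given in the sources used here. No cell intensities were used here. After 45 controls were left out, 20035 probe sets were fitted with limma 3.58.1 in R 4.3.3 (lmFit and eBayes, 4 group means, 8 residual and 2.43 prior degrees of freedom). Two-sided p-values were adjusted over all 20035 by the Benjamini-Hochberg method, with a threshold of 0.05. Intervals are 95% intervals of the fit. No filter on low signal was applied. Symbols came from the array's annotation (10951 probe sets with a symbol, 9084 without), and all 75 also stand in RefSeq's axolotl gene table.

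The members and lists were chosen with earlier results of these data known. Genes set out in detail came mainly from those past the threshold (up to the 8 smallest adjusted p in a comparison with uninjured skin, the 4 smallest between wounds). Others came from the brightest and the most changed member of each family. Not every such gene was given in every array, and further genes were picked after their values were seen. The fit did not pair arrays by replicate number, as the methods do not say whether arrays of different groups share an animal. Alternatives were a filter on the dimmest 25% of probe sets, median subtraction, quantile normalisation, an intensity trend, array weights, only the groups compared, the replicate block, the mean of a gene's probe sets and each array left out. A muscle covariate and leaving out 2 arrays together were added after seeing the data. With 3 arrays in each of 2 groups the smallest p of an exact permutation test is 0.1, so the small number of arrays sets the precision. The fit was tested on simulated data.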

Additional observations from a re-analysis of the deposited data

How the results depend on the processing

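Members past the threshold numbered 6, 6 and 17 at 2, 14 and 21 dpi against uninjured skin, 4 from 2 to 14 dpi, 27 from 2 to 21 dpi, 0 from 14 to 21 dpi and 25 by the F-test. In what follows the shares of all genes, higher then lower, stand in brackets. Median subtraction gave 8 from 2 to 14 dpi (4.02% and 4.79%), and an intensity trend gave 3 at 14 dpi (4.55% and 2.47%). Array weights gave 13 at 2 dpi (10.8% and 7.91%) and 31 at 21 dpi (17.3% and 18.6%). They also gave 8 from 2 to 14 dpi (5.07% and 4.93%), 15 from 14 to 21 dpi (5.74% and 9.32%) and 46 by the F-test. The share of all genes past the F-test, 24.9% in the fit used for the results above, was not worked out for any alternative. F-test counts of members under the alternatives, here and below, therefore cannot be told from a change in calls over the whole array. Fitting only the groups compared gave 0 at 14 dpi (1.46% and 0.313%). With 2 arrays left out together there were 14 at 2 dpi (10.5% and 7.45%) and 12 from 14 to 21 dpi (2.19% and 2.5%). The muscle covariate left 1 at 2 dpi (1.04% and 0.787%) and 6 from 2 to 21 dpi (2.66% and 1.99%). The cause of these differences was not tested. Leaving out each array in turn gave 2 to 10 at 2 dpi, 1 to 10 at 14 dpi, 9 to 18 at 21 dpi, 3 to 8 from 2 to 14 dpi, 19 to 28 from 2 to 21 dpi, 0 to 8 from 14 to 21 dpi and 15 to 31 by the F-test. From 2 to 21 dpi the 19 came without 21 dpi replicate 3 (7.62% and 8.66%). The count at 14 dpi rose to 10 when uninjured replicate 3 was dropped (6.78% and 4.36%). It became 2 without uninjured replicate 1 (2.94% and 0.972%) or 14 dpi replicate 2 (3.33% and 1.63%). It was 1 without uninjured replicate 2 (2.74% and 1.34%) or 14 dpi replicate 3 (3.18% and 1.26%). At 21 dpi dropping uninjured replicate 2 (4.09% and 4.06%) or 21 dpi replicate 3 (3.81% and 2.86%) left 9. Dropping 21 dpi replicate 1 left 10 (4.29% and 3.99%), and dropping 21 dpi replicate 2 left 11 (4.99% and 4.97%). The whole array lost calls in these fits too, from 7.67% and 7.26%. From 2 to 14 dpi it was 8 without 14 dpi replicate 1 (4.32% and 4.56%). By the F-test it was 15 without 2 dpi replicate 2 and 16 without 2 dpi replicate 3 or 21 dpi replicate 3.

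The replicate block gave 3 at 14 dpi in place of 6 (3.88% of all genes were then higher and 1.78% lower). It moved no other count of members by over 1.5 times. The labels give the arrays only a number, and of 18 same-numbered pairs 5 correlated above 0.1, with r from -0.65 to 0.48. These correlations cannot show whether arrays share an animal, as array-wide differences in tissue content also enter them.

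Of the 28 named changes no alternative reversed any, and over the alternatives other than the 2 added after seeing the data 480 of 560 values kept their call and 80 lost it. The 8 genes named at 21 dpi (CRELD2, DNAJB9, HSPA5, PDIA6, HSPD1, CALR, DNAJB11 and DNAJC2) passed in every alternative run.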
